A study of Mus musculus with 12 samples.

Results

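The genes described here are 45 genes of DNA replication, listed by name for their known roles. The rule uses no measured value, but earlier results of these data were known when the list was drawn up. They cover the recognition and licensing of origins, the replicative helicase, the polymerases with their sliding clamp, and the supply of dNTPs, and all 45 were among the 22561 genes of the count table. Their RNA was measured in follicular (FO) B cells, the recirculating B cells of the spleen, which had been sorted from C57BL6 mice aged 10 weeks. There were 4 groups of 3 samples: cells without a stimulus (unstimulated), cells given IFNα, cells given CpG, and cells given CpG + IFNα, with the stimulated cells taken after 12 h. CpG is a synthetic oligodeoxynucleotide that activates TLR9. IFNα belongs to the type I interferons. No deletion or transgene is named for these samples. Nothing in the sources used here says that replicates came from separate mice, so p-values measure the spread between samples, which may be technical. Whether the unstimulated cells were cultured for 12 h is not given either, so that in comparisons with them the stimulus and the time in culture cannot be told apart.

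In a resting cell, DNA replication is switched off and its genes are expressed at low levels. On entry into the cell cycle, the origin recognition complex (ORC) together with Cdc6 and Cdt1 loads the Mcm2-7 helicase onto origins, a step called licensing. Cdc45, the GINS complex and Mcm10 then turn the loaded helicase into an active fork, and polymerases α, δ and ε copy the strands with the help of the clamp PCNA and of dNTPs made on demand. Many of these genes are known targets of E2F transcription factors, which are released from Rb as cells pass from G1 into S phase, and resting B cells are known to enter the cell cycle after TLR9 stimulation.

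Libraries held 922450 to 2923865 counts of unique molecules (UMIs) taken near the 3′ end of transcripts. Levels are given as CPM, counts relative to the total of the library after scaling by edgeR's TMM factors, and they are not compared between genes. Of the 45 genes, 44 passed the filter on low counts and were tested among 9431 genes. The remaining member, Fen1, the flap endonuclease that trims Okazaki fragments, had 0 counts in 10 libraries and 1 count in each of the first 2 CpG + IFNα libraries, which is under the limit of detection of 3 counts. Its transcript end shares 88.6% of its last 500 exonic bases with genes on the opposite strand, and the ends of Orc2, Gins2 and Rfc5 share 100%, 100% and 99.8%. Rfc4, which Eif4a2 overlaps, shares 38.8%, and Mcm7, which Ap4m1 and Cops6 overlap, shares 12.8%. Cops6 had 62 to 74 counts in unstimulated libraries and 259 to 369 with CpG. The values of these 6 genes are uncertain, since it is not given whether the counting used strand. Pcna and Tyms have annotated processed copies that could share reads with them. The FO B cell markers Ms4a1, which encodes CD20, and Fcer2a, which encodes CD23, were present in all libraries. Ms4a1 had 1669, 1898 and 1868 CPM in unstimulated cells and 303, 310.1 and 339 CPM with CpG, and Fcer2a had 1227 ± 196 CPM and 21.3 ± 5.97 CPM (mean ± SD, n = 3). Both were lower with CpG without overlap, while the 4 myeloid markers in the table summed to at most 19.3 CPM and the 3 T cell markers, with Cd8a at 0 throughout, to at most 3.64 CPM in any library. The 6 erythroid markers, of which 1 was at 0 in every library, summed to 57.4 to 345 CPM in unstimulated cells, 15.3 to 336 CPM with IFNα, 4.99 to 60.8 CPM with CpG and 5.65 to 72 CPM with CpG + IFNα. The 4 marginal zone B cell markers summed to 219 to 222 CPM in unstimulated cells, 88.8 to 123 CPM with IFNα, 43.0 to 56.3 CPM with CpG and 27.8 to 36.5 CPM with CpG + IFNα. The 4 plasma cell markers summed to 119 to 145, 97.9 to 114, 54.2 to 80.4 and 45.9 to 73.5 CPM in the same order. Mitochondrial genes took 6.06% to 7.70% of counts in unstimulated cells, 5.91% to 8.52% with IFNα, 3.29% to 4.85% with CpG and 2.99% to 3.52% with CpG + IFNα. The part of these markers and of the mitochondrial share in the results was not tested.

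The DNA replication genes as a group were higher with CpG. Together, the 45 genes had 1694, 1669.7 and 1714 CPM in the 3 unstimulated libraries and 1578, 1553 and 1635 CPM in those with IFNα. They had 3107, 3050.1 and 3704 CPM with CpG and 2832, 2737 and 2916 CPM with CpG + IFNα. All libraries with CpG therefore lay above those without it, the sums with IFNα alone lay below the unstimulated ones, and the CpG + IFNα libraries lay below the 3 CpG libraries. By role, the sums with IFNα alone differed in direction: the 7 polymerase and primase genes had 262, 222 and 256 CPM in unstimulated cells and 183, 179 and 201 CPM with IFNα, whereas the 6 genes of helicase activation had 49.1, 38.5 and 47.7 CPM and 57.5, 54.7 and 56.5 CPM, both without overlap. As a share of all counts, the genes went from between 0.169% and 0.176% in unstimulated cells to between 0.307% and 0.374% with CpG. In bulk RNA, more cells expressing a gene and more RNA per cell cannot be told apart. CpG replicate 3 had the largest sum of all libraries, and it was the highest of the 3 CpG libraries for 26 of the 44 tested members. In every other group, too, replicate 3 had the largest sum. It was the highest library for 22 of the 44 members with CpG + IFNα, 18 with IFNα and 14 in unstimulated cells. Of these 44, 32 had their highest group mean with CpG, 4 with CpG + IFNα, 6 in unstimulated cells and 2 with IFNα.

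**Figure D1:**
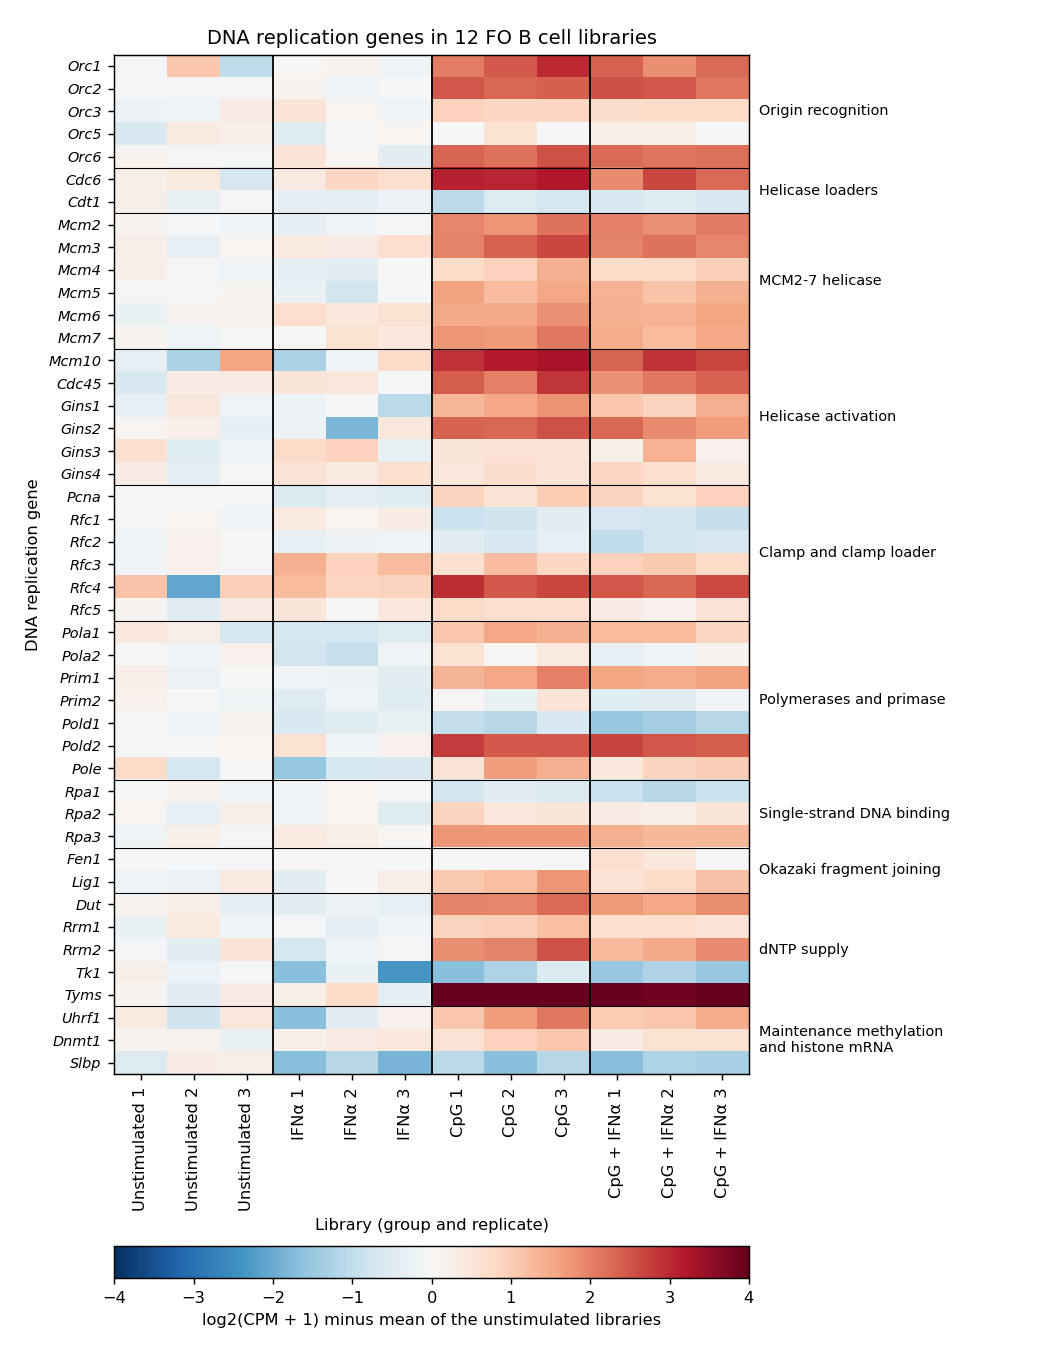
Level of the 45 DNA replication genes in the 12 libraries, as log2(CPM + 1) minus the mean of the unstimulated libraries (red, higher; blue, lower). Columns are libraries, rows are genes in the order of their roles. The columns with CpG are red for most rows, and the rows of Cdt1, Rfc1, Rfc2, Pold1, Rpa1, Tk1 and Slbp are blue there.

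Against unstimulated cells, CpG gave 26 up-regulated and 2 down-regulated members by edgeR's quasi-likelihood test (adjusted p under 0.1 and fold change over 2). Over all genes tested, 20.1% were up-regulated and 25.5% down-regulated by the same rule. Without the limit on fold change, 33 members rose and 7 fell, and the corresponding shares of all genes were 36.5% and 38.4%. The median log2 fold change of the 44 members was 1.37, beside -0.03 over all genes. Only Orc5, Gins3, Pola2 and Prim2 did not pass the test in either direction.

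The promoters of members that the results below turn on are shown here, since E2F factors are known to bind many replication genes and promoters can be searched for the letters that they prefer. RefSeq promoters (GRCm38.p6, 250 bases before to 50 bases after the start site) were found for 38 of the 45 members, in 47 windows of 300 bases. Capitals mark matches of TTTNNCGC on either strand. The first 8 sequences are of the members with the largest increase with CpG in their role groups, leaving out Lig1 and Uhrf1, which have several windows and a match in at least 1. The other 4 are of Mcm6, Mcm7, Rfc3 and Slbp, which had the smallest p in the test of whether the response to IFNα differed with CpG. All read 5′ to 3′ on the strand of the gene.
Orc1, chr4:108579204-108579503, plus strand: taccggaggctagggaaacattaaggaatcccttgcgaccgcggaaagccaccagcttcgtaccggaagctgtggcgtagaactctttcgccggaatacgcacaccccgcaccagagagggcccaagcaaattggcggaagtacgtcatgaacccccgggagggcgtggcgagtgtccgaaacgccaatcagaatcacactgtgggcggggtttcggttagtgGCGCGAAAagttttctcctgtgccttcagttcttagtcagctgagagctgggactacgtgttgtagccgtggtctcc
Cdc6, chr11:98907901-98908200, plus strand: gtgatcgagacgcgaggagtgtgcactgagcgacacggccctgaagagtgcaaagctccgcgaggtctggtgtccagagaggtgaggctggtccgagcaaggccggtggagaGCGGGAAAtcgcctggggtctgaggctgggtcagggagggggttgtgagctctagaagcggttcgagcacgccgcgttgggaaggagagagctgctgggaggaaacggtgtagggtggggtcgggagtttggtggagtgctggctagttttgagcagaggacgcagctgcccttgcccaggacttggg
Mcm3, chr1:20820263-20820562, minus strand: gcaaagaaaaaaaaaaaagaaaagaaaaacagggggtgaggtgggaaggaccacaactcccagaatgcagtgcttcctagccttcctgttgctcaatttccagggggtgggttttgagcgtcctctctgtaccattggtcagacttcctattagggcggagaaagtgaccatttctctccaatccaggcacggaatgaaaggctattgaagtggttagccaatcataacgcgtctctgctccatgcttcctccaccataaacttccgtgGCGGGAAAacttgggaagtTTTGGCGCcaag
Mcm10, chr2:5012742-5013041, minus strand: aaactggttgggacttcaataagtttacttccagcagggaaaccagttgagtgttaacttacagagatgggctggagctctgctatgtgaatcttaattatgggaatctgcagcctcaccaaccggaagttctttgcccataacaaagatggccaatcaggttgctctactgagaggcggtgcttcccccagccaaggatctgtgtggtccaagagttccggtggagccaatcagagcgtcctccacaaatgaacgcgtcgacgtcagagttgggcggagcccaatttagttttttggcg
Rfc4, chr16:23127681-23127980, minus strand: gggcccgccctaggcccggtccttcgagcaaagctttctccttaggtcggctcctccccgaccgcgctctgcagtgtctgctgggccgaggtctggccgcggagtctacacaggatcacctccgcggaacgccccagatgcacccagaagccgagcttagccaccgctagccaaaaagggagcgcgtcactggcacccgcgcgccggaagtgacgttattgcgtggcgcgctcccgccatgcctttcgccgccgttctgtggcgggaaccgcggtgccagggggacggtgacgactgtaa
Pold2, chr11:5878207-5878506, minus strand: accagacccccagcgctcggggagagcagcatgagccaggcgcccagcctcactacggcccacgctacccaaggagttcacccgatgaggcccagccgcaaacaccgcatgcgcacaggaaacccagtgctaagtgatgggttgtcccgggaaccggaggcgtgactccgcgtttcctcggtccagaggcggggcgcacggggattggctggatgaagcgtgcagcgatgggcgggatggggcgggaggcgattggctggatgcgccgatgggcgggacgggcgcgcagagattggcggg
Rpa3, chr6:8259092-8259391, minus strand: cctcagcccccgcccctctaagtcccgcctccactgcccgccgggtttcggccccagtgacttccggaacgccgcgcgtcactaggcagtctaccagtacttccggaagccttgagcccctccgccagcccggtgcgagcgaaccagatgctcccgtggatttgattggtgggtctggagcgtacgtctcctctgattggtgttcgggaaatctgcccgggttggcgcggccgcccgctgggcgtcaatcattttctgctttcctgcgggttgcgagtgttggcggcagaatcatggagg
Tyms, chr5:30073576-30073875, minus strand: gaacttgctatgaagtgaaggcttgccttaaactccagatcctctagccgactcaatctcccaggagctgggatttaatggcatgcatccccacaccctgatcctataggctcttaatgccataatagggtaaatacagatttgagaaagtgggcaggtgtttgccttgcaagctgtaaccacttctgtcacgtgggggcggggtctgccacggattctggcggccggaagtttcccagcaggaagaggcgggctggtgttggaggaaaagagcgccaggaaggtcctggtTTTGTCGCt
Mcm6, chr1:128359656-128359955, minus strand: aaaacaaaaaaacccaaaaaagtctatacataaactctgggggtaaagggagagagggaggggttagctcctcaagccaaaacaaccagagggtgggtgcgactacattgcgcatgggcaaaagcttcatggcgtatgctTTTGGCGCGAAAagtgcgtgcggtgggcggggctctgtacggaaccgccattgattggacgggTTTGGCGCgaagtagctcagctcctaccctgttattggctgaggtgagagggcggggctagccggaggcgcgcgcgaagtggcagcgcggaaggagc
Mcm7, chr5:138171834-138172133, minus strand: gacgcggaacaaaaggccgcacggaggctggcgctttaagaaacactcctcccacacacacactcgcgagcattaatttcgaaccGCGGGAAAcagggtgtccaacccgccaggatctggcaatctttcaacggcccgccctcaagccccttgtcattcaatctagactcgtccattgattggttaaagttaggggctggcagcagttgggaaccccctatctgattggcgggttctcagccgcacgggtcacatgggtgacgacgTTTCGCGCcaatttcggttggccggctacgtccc
Rfc3, chr5:151651159-151651458, minus strand: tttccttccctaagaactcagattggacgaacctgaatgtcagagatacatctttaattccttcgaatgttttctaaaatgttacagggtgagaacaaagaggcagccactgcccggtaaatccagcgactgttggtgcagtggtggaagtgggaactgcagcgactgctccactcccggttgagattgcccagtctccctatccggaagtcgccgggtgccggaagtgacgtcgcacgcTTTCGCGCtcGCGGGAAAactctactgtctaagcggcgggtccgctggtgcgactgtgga
Slbp, chr5:33652525-33652824, minus strand: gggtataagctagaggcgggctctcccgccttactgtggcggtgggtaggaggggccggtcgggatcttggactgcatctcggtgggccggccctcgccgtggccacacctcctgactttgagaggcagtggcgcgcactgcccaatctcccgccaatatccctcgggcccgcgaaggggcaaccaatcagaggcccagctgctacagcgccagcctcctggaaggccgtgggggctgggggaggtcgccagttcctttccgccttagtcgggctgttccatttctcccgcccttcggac
The match of Orc1 began 27 bases before the start site and that of Cdc6 138 bases before it, while that of Tyms began 41 bases after it. Mcm6 had 3 matches, of which the first 2 overlapped on opposite strands, and Rfc3 had 2 matches that were 2 bases apart. The promoters of Mcm10, Rfc4, Pold2, Rpa3 and Slbp held none, nor did the second windows of Pold2 and Mcm7, which are not shown. The 12 sequences were chosen by the rules above and are no measure of how common the letters are. Over all members, the letters occurred in 17 of 47 windows (36.2%), beside 5.2% of 32851 promoters of all genes and 6.2% of 21263 promoters of protein-coding genes. By role, 4 of the 5 MCM2-7 genes with a promoter had a match, as did both helicase loaders, whereas 0 of the 3 single-strand binding genes and 1 of the 5 genes of dNTP supply had one. Windows of members up-regulated by CpG held the letters in 11 of 28 cases (39.3%), and windows of tested members that were neither up- nor down-regulated in 6 of 15 (40.0%). The latter set includes members that rose or fell by less than 2-fold, so it is not a set of genes without a response. A second motif, TTTGAA (the CHR element of genes expressed late in the cell cycle), occurred on either strand in 6 of 47 windows (12.8%), beside 17.9% of all promoters. It shared a window with TTTNNCGC in 1 case and overlapped it in 0. Members' windows had a median GC content of 60.0%, beside 52.7% for all genes and 56.3% for protein-coding genes, so the shares compare promoters of unequal base composition. A match of letters is a description and not a binding site.

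Among the genes of origin recognition, 4 of 5 rose with CpG and 3 were up-regulated. Orc1, the ATPase subunit of ORC that is made anew as cells leave quiescence, had 0.91, 3.21 and 0 CPM in unstimulated cells and 7.37, 9.98 and 14.98 CPM with CpG (log2 fold change of 3.04, standard error 0.60, edgeR adjusted p = 4.42e-05). These levels stood on 0 to 3 counts per unstimulated library and 12 to 30 per CpG library, and the groups did not overlap. Orc2 and Orc6 rose with log2 fold changes of 2.47 and 2.41, and Orc3 rose by 0.87. Nif3l1, the gene that overlaps the end of Orc2 on the opposite strand, also had more counts with CpG, 49 to 68 per library beside 12 to 15 in unstimulated cells. Orc5 had 11.8, 24.6 and 22.1 CPM in unstimulated cells and 18.4, 29.2 and 19.0 CPM with CpG, groups that overlapped (log2 fold change of 0.18, edgeR adjusted p = 0.561).

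Both helicase loaders changed, in opposite directions. Cdc6, which closes the ORC ring and recruits the helicase, had 1, 1 and 0 counts in unstimulated cells and 20, 17 and 27 counts with CpG, or 12.3, 12.1 and 13.5 CPM. The ratio of its summed counts, scaled by library totals, was 19.9, with an exact binomial 95% interval of 5.29 to 168 that covers counting error only (edgeR adjusted p = 5.24e-07). Cdt1, which escorts the helicase to origins, had 112, 78.1 and 97.1 CPM in unstimulated cells and 45.4, 64.2 and 57.9 CPM with CpG. All CpG libraries were lower, and Cdt1 fell (log2 fold change of -0.79, standard error 0.15, edgeR adjusted p = 2.98e-05).

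The 6 subunits of the MCM2-7 helicase were the most uniform role group, with 6 of 6 up-regulated by CpG and log2 fold changes between 1.07 and 2.35. Summed over the ring, they had 322, 299.5 and 318 CPM in unstimulated cells and 949.8, 942 and 1204 CPM with CpG. Mcm3 was highest in change, with 56.4, 36.4 and 48.5 CPM in unstimulated cells and 185, 239.5 and 300.04 CPM with CpG (log2 fold change of 2.35, standard error 0.17, edgeR adjusted p = 6.60e-14). Mcm4 was lowest in change, with 70.1, 59.9 and 53.8 and 102, 117 and 163 CPM (log2 fold change of 1.07, standard error 0.16, edgeR adjusted p = 8.73e-07). In each of the 6 genes, every CpG library was above every unstimulated library.

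Of the 6 genes that turn the loaded helicase into an active fork, 5 rose and 4 were up-regulated. Mcm10, a scaffold of the active helicase, had 0.91, 0 and 6.18 CPM in unstimulated cells, from 1, 0 and 7 counts, and 16.6, 20.7 and 22.5 CPM with CpG (log2 fold change of 2.95, standard error 0.50, edgeR adjusted p = 3.79e-06). Cdc45 and the GINS subunits Gins2 and Gins1 rose by 2.73, 2.78 and 1.70 on the log2 scale. The other GINS subunits moved less. Gins4 rose by 0.54, and Gins3 had 8.19, 3.21 and 4.41 CPM in unstimulated cells and 7.37, 7.84 and 7.49 CPM with CpG, which overlapped (log2 fold change of 0.49, edgeR adjusted p = 0.377).

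The clamp and its loader were divided. Pcna, the sliding clamp, rose with CpG (log2 fold change of 0.86, standard error 0.13, edgeR adjusted p = 5.08e-07), from 128, 136 and 131 CPM to 247, 198 and 269 CPM. Among the subunits of replication factor C, the clamp loader, Rfc4 was up-regulated, with 8.19, 0 and 7.06 CPM in unstimulated cells and 31.3, 22.1 and 26.0 CPM with CpG (log2 fold change of 2.30, standard error 0.37, edgeR adjusted p = 1.96e-06). Rfc3 and Rfc5 rose by 0.95 and 0.66, less than 2-fold. The large subunit Rfc1 fell from 178, 184 and 161 CPM to 95.2, 99.1 and 128 CPM (log2 fold change of -0.69, standard error 0.13, edgeR adjusted p = 2.45e-05), and Rfc2 fell as well (log2 fold change of -0.46, edgeR adjusted p = 0.00412). Subunits that work in a fixed ratio as a protein thus differed in the direction of their RNA.

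Polymerase δ was divided in the same way. Pold2, its accessory subunit, had 24.6, 25.7 and 27.4 CPM in unstimulated cells and 184, 145 and 150.3 CPM with CpG (log2 fold change of 2.62, standard error 0.17, edgeR adjusted p = 7.98e-15). Pold1, its catalytic subunit, had 136, 119 and 149 CPM in unstimulated cells and 68.2, 61.3 and 88.4 CPM with CpG, so that all CpG libraries were lower (log2 fold change of -0.88, standard error 0.14, edgeR adjusted p = 2.88e-06). In the polymerase α-primase complex, which lays down primers, the catalytic subunits Pola1 and Prim1 were up-regulated by 1.36 and 1.71. The partners Pola2 and Prim2 had log2 fold changes of 0.39 and 0.19 and did not pass (edgeR adjusted p = 0.138 and 0.474). Pole, the leading-strand polymerase, was up-regulated (log2 fold change of 1.23, edgeR adjusted p = 0.00314) although its libraries overlapped between the groups.

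RPA, the trimer that coats single-stranded DNA, was another divided complex. Its small subunit Rpa3 had 23.7, 32.1 and 25.6 CPM in unstimulated cells and 94.6, 91.2 and 92.4 CPM with CpG (log2 fold change of 1.78, standard error 0.16, edgeR adjusted p = 2.37e-11), and Rpa2 rose by 0.60. The large subunit Rpa1 had 91.0, 98.4 and 80.3 CPM and 53.4, 64.9 and 59.9 CPM, and it fell (log2 fold change of -0.60, standard error 0.15, edgeR adjusted p = 5.68e-04). Lig1, the ligase that seals Okazaki fragments, was up-regulated, from 25.5, 23.5 and 36.2 CPM to 58.9, 64.9 and 96.9 CPM (log2 fold change of 1.38, standard error 0.22, edgeR adjusted p = 1.56e-06).

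The supply of dNTPs held the largest change of all members. Tyms, the thymidylate synthase, had 3.64, 2.14 and 4.41 CPM in unstimulated cells, from 4, 2 and 5 counts, and 70.6, 68.4 and 84.9 CPM with CpG (log2 fold change of 4.40, standard error 0.28, edgeR adjusted p = 2.57e-15). Dut, which removes dUTP, and Rrm2 and Rrm1, the subunits of ribonucleotide reductase, were up-regulated by 2.10, 2.18 and 1.03 on the log2 scale. Tk1, the thymidine kinase of the salvage pathway, was down-regulated, with 37.3, 26.7 and 30.9 CPM in unstimulated cells and 9.21, 12.8 and 20.5 CPM with CpG (log2 fold change of -1.12, standard error 0.32, edgeR adjusted p = 0.00281). The de novo and the salvage enzymes for thymidylate thus moved in opposite directions.

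Of the 3 genes linked to chromatin copying, Uhrf1, which reads hemimethylated DNA, was up-regulated, from 15.5, 6.42 and 16.8 CPM to 26.4, 40.6 and 55.4 CPM (log2 fold change of 1.64, standard error 0.31, edgeR adjusted p = 2.05e-05). Dnmt1, the maintenance methyltransferase, rose by 0.89. Slbp, which binds the stem-loop of histone mRNA, was down-regulated, with 43.7, 78.1 and 76.8 CPM in unstimulated cells and 29.5, 19.2 and 28.5 CPM with CpG (log2 fold change of -1.33, standard error 0.22, edgeR adjusted p = 2.22e-06). The count of 2 down-regulated members, Tk1 and Slbp, was 1 without unstimulated replicate 1 or without CpG replicate 1. Over the 18 alternatives that kept the threshold on p, 32 to 34 members rose and 7 fell.

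**Figure D2:**
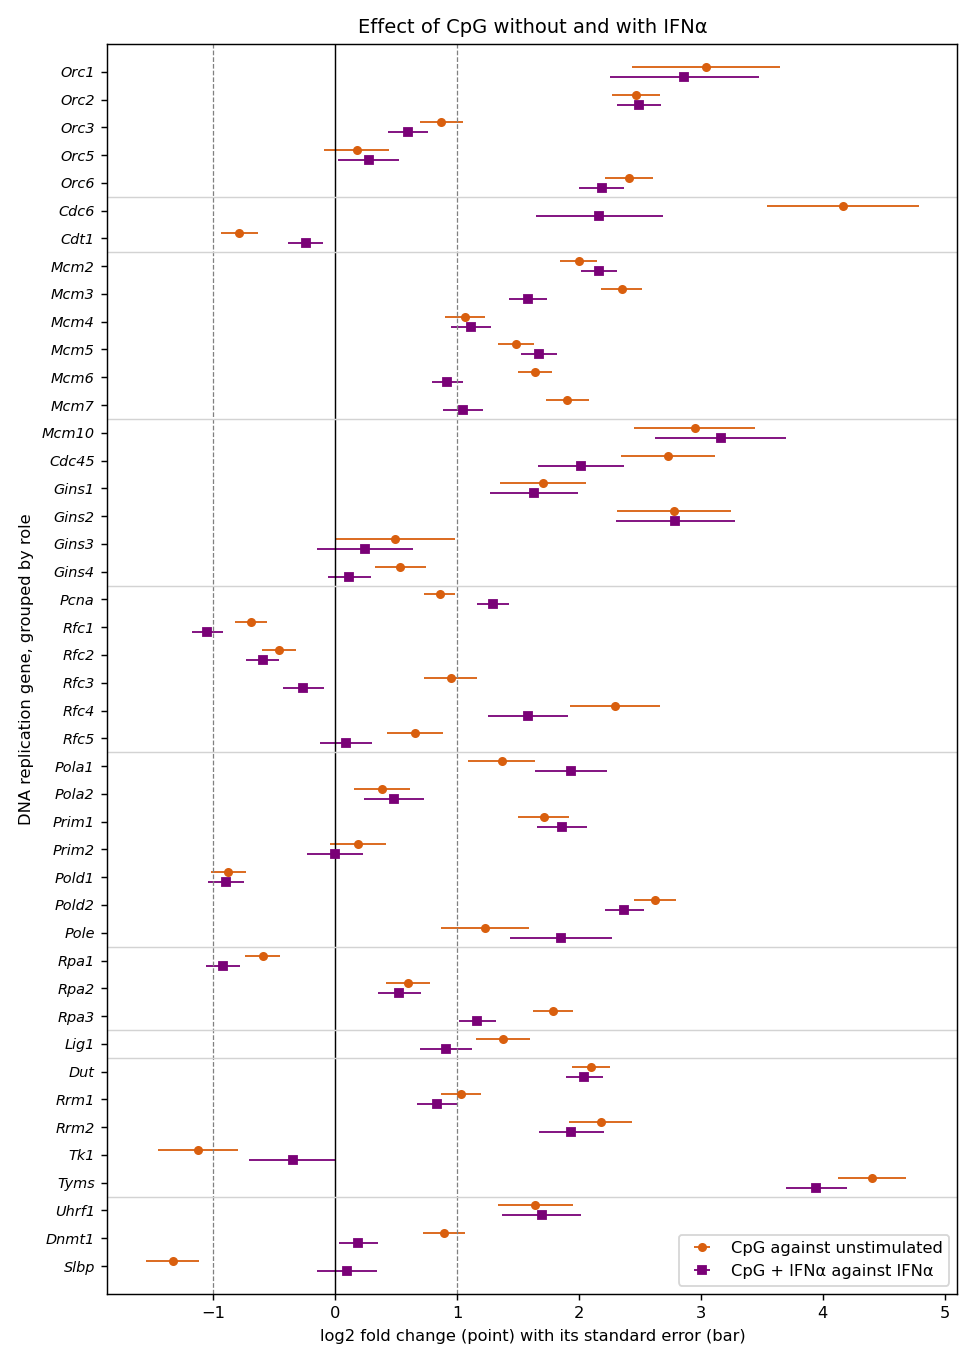
Log2 fold change of the 44 tested DNA replication genes with CpG, without IFNα (circles) and with IFNα (squares). Bars are standard errors, dashed lines mark a fold change of 2, and grey lines separate the roles. The comparisons share no library, and Tyms lies farthest to the right in both.

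The same question was asked in the presence of IFNα. Between CpG + IFNα and IFNα alone, 24 members were up-regulated and 1 was down-regulated (all genes, 18.7% and 25.5%). Without the limit on fold change, 30 rose and 4 fell (all genes, 36.1% and 39.8%), and their median log2 fold change was 1.14, beside -0.07 over all genes. This comparison shares no library with that of CpG against unstimulated cells, and 23 members were up-regulated in both, which is 88.5% of the 26 and 95.8% of the 24. Both comparisons measure the effect of CpG, and their overlap over all genes was not computed. The overlaps are therefore not read as particular to the members. Mcm6, Lig1 and Rrm1 passed the limit on fold change without IFNα only, and Pcna with IFNα only. The 1 down-regulated member, Rfc1 (log2 fold change of -1.05, edgeR adjusted p = 5.97e-09), fell below the limit of 2-fold with library totals in place of TMM, without the filter on low counts, and when unstimulated replicate 3, IFNα replicate 1 or CpG + IFNα replicate 3 was left out. Pold1, Rfc1, Rfc2 and Rpa1 fell in both comparisons, which is 4 of 7 and 4 of 4. Tyms had the largest change here too, from 4.04, 6.08 and 2.29 CPM with IFNα to 71.5, 62.8 and 68.9 CPM with CpG + IFNα (log2 fold change of 3.95, standard error 0.25, edgeR adjusted p = 1.99e-15).

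Against unstimulated cells, CpG + IFNα gave 22 up-regulated and 3 down-regulated members (all genes, 20.3% and 25.6%). There, 32 members rose and 7 fell (all genes, 37.6% and 38.8%), with a median log2 fold change of 1.04, beside -0.01 over all genes. The 3 down-regulated members were Tk1, Slbp and Pold1, with log2 fold changes of -1.47, -1.46 and -1.37. This comparison uses the same unstimulated libraries as that of CpG.

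**Figure D3:**
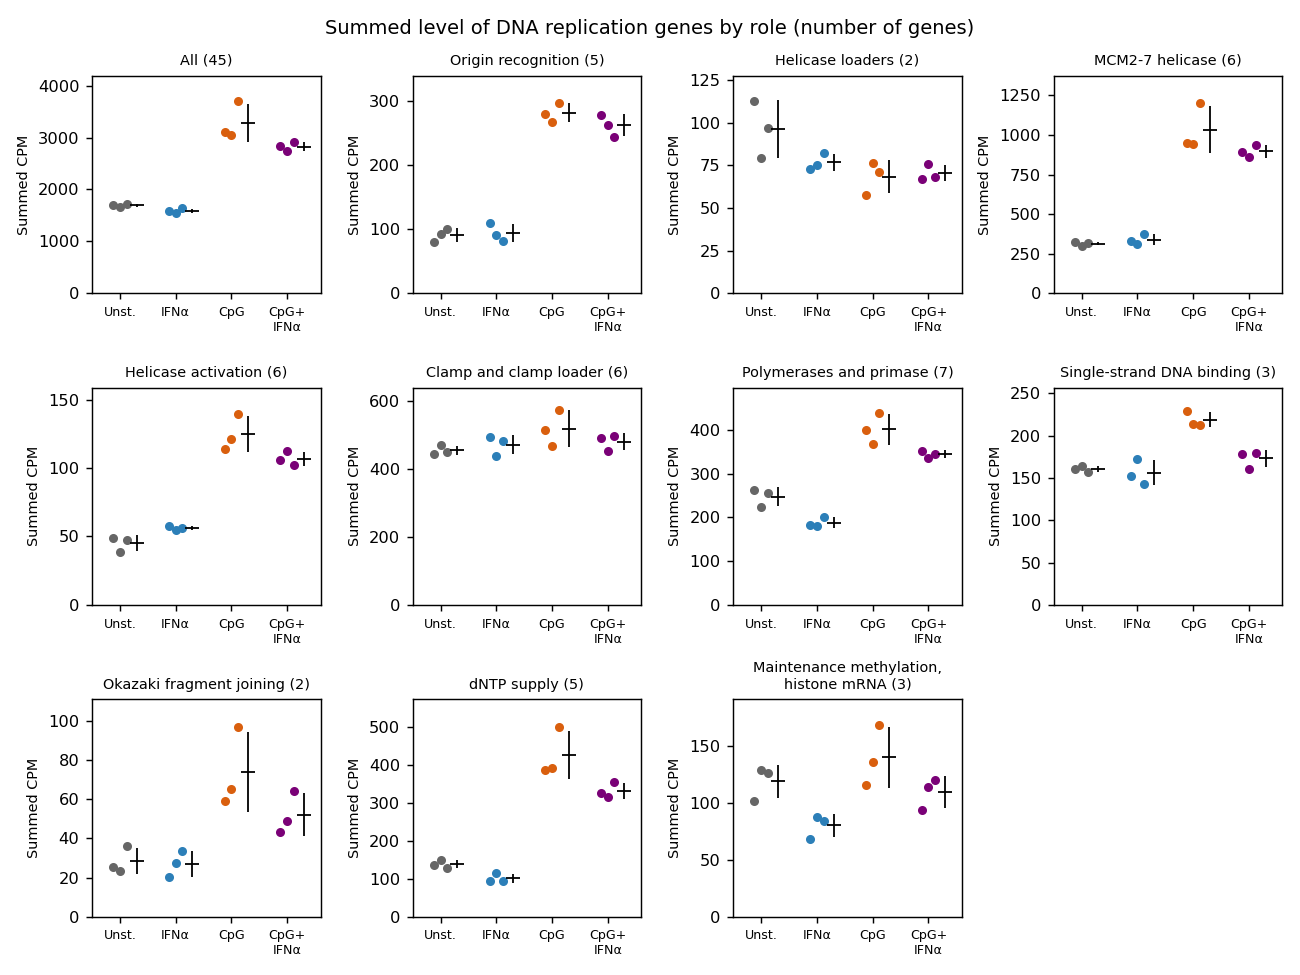
Summed CPM of the DNA replication genes by role in each library (points), with the mean and SD of 3 libraries beside them. The number of genes is in each title, and every axis starts at 0. The MCM2-7 sum is 942 to 1204 CPM with CpG and 299.5 to 322 CPM in unstimulated cells, whereas the sum of the clamp and clamp loader overlaps between groups.

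IFNα alone changed few of the members. Against unstimulated cells, 1 was up-regulated and 2 were down-regulated (all genes, 4.56% and 4.07%). Without the limit on fold change 2 rose and 4 fell (all genes, 12.4% and 11.9%). Rfc3 was up-regulated, with 20.02, 24.6 and 21.2 CPM in unstimulated cells and 60.5, 42.0 and 52.7 CPM with IFNα (log2 fold change of 1.22, standard error 0.22, edgeR adjusted p = 5.88e-05). Mcm6 rose from 50.05, 66.3 and 67.1 CPM to 97.9, 80.9 and 92.3 CPM (log2 fold change of 0.55, standard error 0.16, edgeR adjusted p = 0.0097). In both genes every IFNα library was above every unstimulated library.

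Slbp was the member that IFNα changed most. It had 19.2, 29.2 and 16.8 CPM with IFNα, all below the unstimulated libraries, of which replicate 1 was lower than the others at 43.7 CPM (log2 fold change of -1.56, standard error 0.23, edgeR adjusted p = 4.07e-06). Tk1 was down-regulated too, with 9.08, 26.1 and 5.34 CPM with IFNα (log2 fold change of -1.12, standard error 0.34, edgeR adjusted p = 0.0171). Replicate 2 lay close to the lowest unstimulated library, and without IFNα replicate 3 the fall of Tk1 did not pass (adjusted p = 0.136). Pcna fell from 128, 136 and 131 CPM to 88.8, 102 and 93.1 CPM (log2 fold change of -0.47, standard error 0.14, edgeR adjusted p = 0.016), and Pold1 fell from 136, 119 and 149 CPM to 86.8, 94.9 and 109 CPM (log2 fold change of -0.47, standard error 0.14, edgeR adjusted p = 0.0186). The calls of Rfc3, Mcm6, Slbp, Pcna and Pold1 held under each of the 18 alternatives that kept the threshold. The count of 2 down-regulated members was 1 when unstimulated replicate 1, IFNα replicate 1 or IFNα replicate 3 was left out, and the 2 that rose became 4 without unstimulated replicate 1 and 5 without IFNα replicate 2. With library totals in place of TMM, 8 fell.

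**Figure D4:**
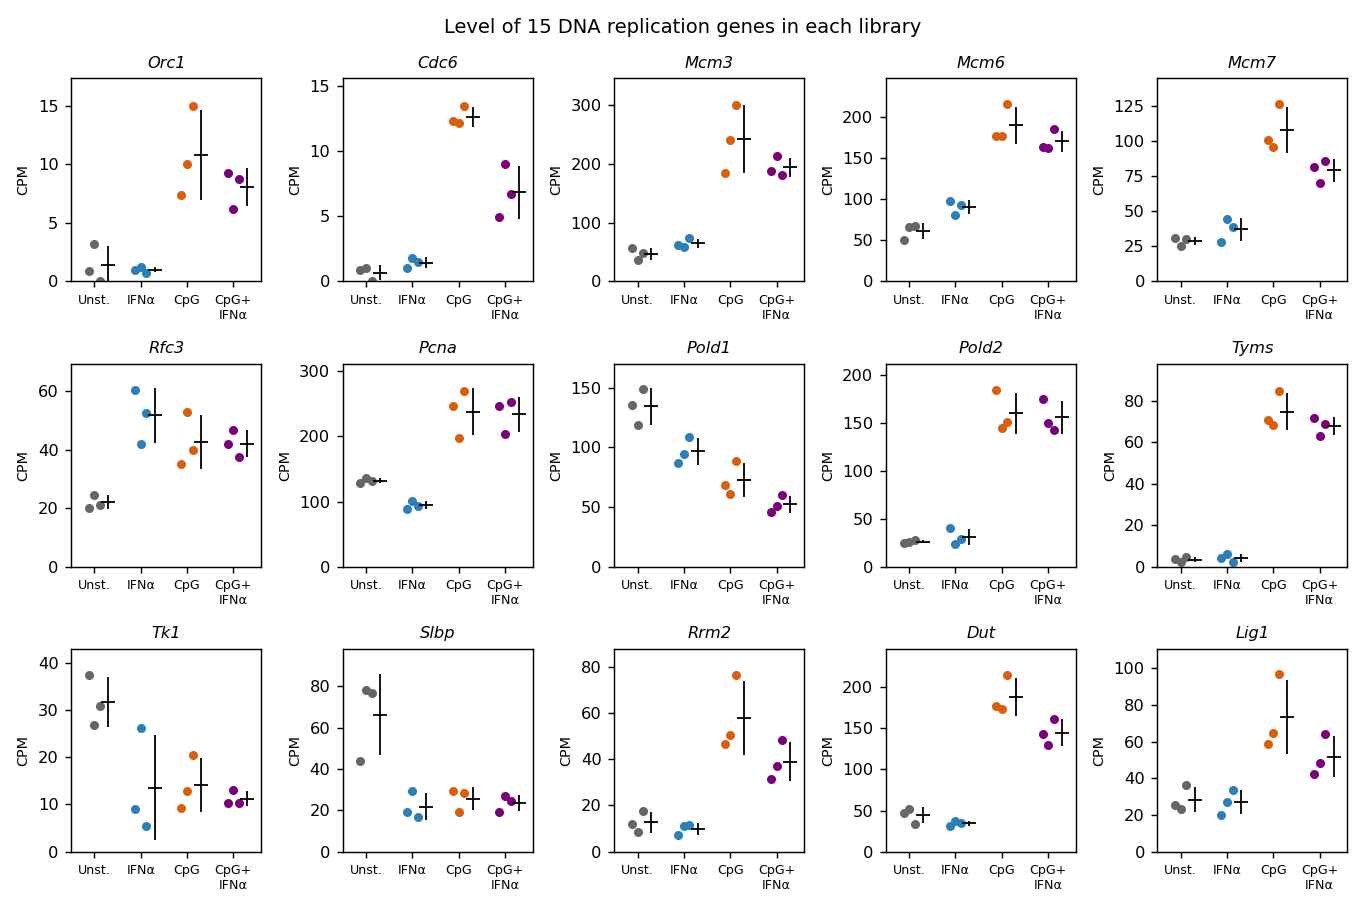
CPM of DNA replication genes in each of the 12 libraries (points), with the mean and SD of 3 libraries beside them. Every axis starts at 0. Pold1, Tk1 and Slbp are lower in the stimulated groups than in unstimulated cells, and Orc1, Cdc6, Pold2 and Tyms are near 0 or low without CpG.

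With CpG + IFNα most members lay slightly below their level with CpG, and how many passed the test depended on single libraries. Between CpG + IFNα and CpG, 0 members were up-regulated and 0 down-regulated by edgeR (all genes, 2.95% and 2.01%), as with DESeq2, and 15 had an unadjusted p under 0.05 with edgeR and 8 with DESeq2. Without the limit on fold change, 0 rose and 10 fell (all genes, 6.54% and 8.83%). The median log2 fold change of the 44 members was -0.33, beside -0.04 over all genes, and 39 of the 44 lay below 0. The shares of all genes below 0, or with an unadjusted p under 0.05, were not computed. The counts of members by these limits therefore cannot be set beside all genes. The members that fell were Cdc6, Mcm7, Rfc2, Prim2, Pold1, Rpa3, Lig1, Dut, Rrm1 and Rrm2. Without CpG replicate 3, 0 members fell with edgeR, 6 had an unadjusted p under 0.05, and the median was -0.17. DESeq2 called 1 of the 10, Pold1. Leaving out CpG + IFNα replicate 1 gave 3, leaving out CpG + IFNα replicate 2 gave 1 (Cdc6, which was then down-regulated), leaving out unstimulated replicate 3 gave 6, leaving out IFNα replicate 2 gave 14, and the fit without the filter on low counts gave 4.

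In this comparison Mcm7 had the smallest p, with 101, 96.2 and 127 CPM with CpG and 81.8, 70.4 and 85.8 CPM with CpG + IFNα (log2 fold change of -0.46, standard error 0.14, edgeR adjusted p = 0.0204). Pold1 had 68.2, 61.3 and 88.4 CPM and 45.8, 50.7 and 60.1 CPM (log2 fold change of -0.49, standard error 0.15, edgeR adjusted p = 0.026). Dut had 176, 172 and 215 CPM and 143, 129 and 161 CPM (log2 fold change of -0.39, standard error 0.12, edgeR adjusted p = 0.0304). Cops6, which overlaps Mcm7, was also lower, at 225, 183 and 176 CPM with CpG and 153, 147 and 139.8 CPM with CpG + IFNα. In Mcm7, Pold1 and Dut all libraries with CpG + IFNα were below all libraries with CpG. Rpa3 was likewise lower without overlap, with 94.6, 91.2 and 92.4 CPM and 75.3, 68.7 and 68.9 CPM (log2 fold change of -0.39, standard error 0.13, edgeR adjusted p = 0.0391). Rrm2 had 46.7, 50.6 and 76.4 CPM with CpG and 31.6, 36.9 and 48.3 CPM with CpG + IFNα (log2 fold change of -0.59, standard error 0.18, edgeR adjusted p = 0.0307), and Lig1 had 58.9, 64.9 and 96.9 CPM and 42.5, 48.6 and 64.2 CPM (log2 fold change of -0.53, standard error 0.18, edgeR adjusted p = 0.0482). Both overlapped between the groups, and in both genes replicate 3 was the highest library with CpG and also with CpG + IFNα. Compared by replicate number, both genes were lower with CpG + IFNα in every replicate, but the samples were not tested as pairs. The largest fall was that of Cdc6, with 12.3, 12.1 and 13.5 CPM with CpG and 4.91, 8.97 and 6.68 CPM with CpG + IFNα (log2 fold change of -0.83, standard error 0.31, edgeR adjusted p = 0.0867), which kept its call in 9 of 18 alternatives. Tyms, the member that CpG changed most, did not pass here (log2 fold change of -0.16, edgeR adjusted p = 0.563).

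Whether the effect of IFNα depended on CpG was tested as an interaction, the log2 effect of IFNα with CpG minus that without it. By this test 1 member was up-regulated and 1 down-regulated (all genes, 3.09% and 3.17%), and 1 rose and 6 fell without the limit on fold change (all genes, 5.84% and 7.58%). Rfc3, which IFNα raised in the absence of CpG, had 35.0, 52.7 and 39.9 CPM with CpG and 42.0, 46.6 and 37.5 CPM with CpG + IFNα, and its interaction was -1.21 (standard error 0.28, edgeR adjusted p = 0.00366). The libraries with CpG, with and without IFNα, overlapped each other and the range with IFNα alone. Slbp, which IFNα lowered in the absence of CpG, had 29.5, 19.2 and 28.5 CPM with CpG and 19.1, 26.9 and 24.7 CPM with CpG + IFNα, and its interaction was 1.43 (standard error 0.33, edgeR adjusted p = 0.00369).

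Among the helicase subunits, Mcm6 had an interaction of -0.72 (standard error 0.19, edgeR adjusted p = 0.015), with 176, 176 and 216 CPM with CpG and 164, 162 and 184 CPM with CpG + IFNα. Mcm7 had -0.86 (standard error 0.25, edgeR adjusted p = 0.025), with 30.9, 25.7 and 30.0 CPM in unstimulated cells and 28.3, 44.4 and 38.9 CPM with IFNα, from an effect of IFNα of 0.39 without CpG and -0.46 with it. Mcm3 had -0.77 (edgeR adjusted p = 0.0384), while Mcm2, Mcm4 and Mcm5 had 0.17, 0.04 and 0.19 and did not pass. Rpa3 and Dnmt1 had -0.62 and -0.70 (edgeR adjusted p = 0.0983 and 0.0583). Rfc3, Slbp, Mcm6 and Mcm7 kept their calls in 17 of 17 alternatives, Mcm3 in 13, Dnmt1 in 10 and Rpa3 in 4. No alternative addressed the overlap of Mcm7 with Cops6, whose levels with CpG and with CpG + IFNα are given above. Cops6 had 66.6, 69.8 and 54.1 CPM in unstimulated cells and 80.1, 59.0 and 74.2 CPM with IFNα. Its part in the interaction of Mcm7 was not tested. The 6 that fell became 3 without unstimulated replicate 3 or CpG replicate 3, and the members that rose became 2 without CpG replicate 2 or 3, CpG + IFNα replicate 2, unstimulated replicate 2 or IFNα replicate 2. With library totals in place of TMM, 3 rose (Cdt1, Pcna and Slbp) and 4 fell. The count of down-regulated members was 2 without IFNα replicate 1, and that of up-regulated members 2 without IFNα replicate 2.

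**Figure D5:**
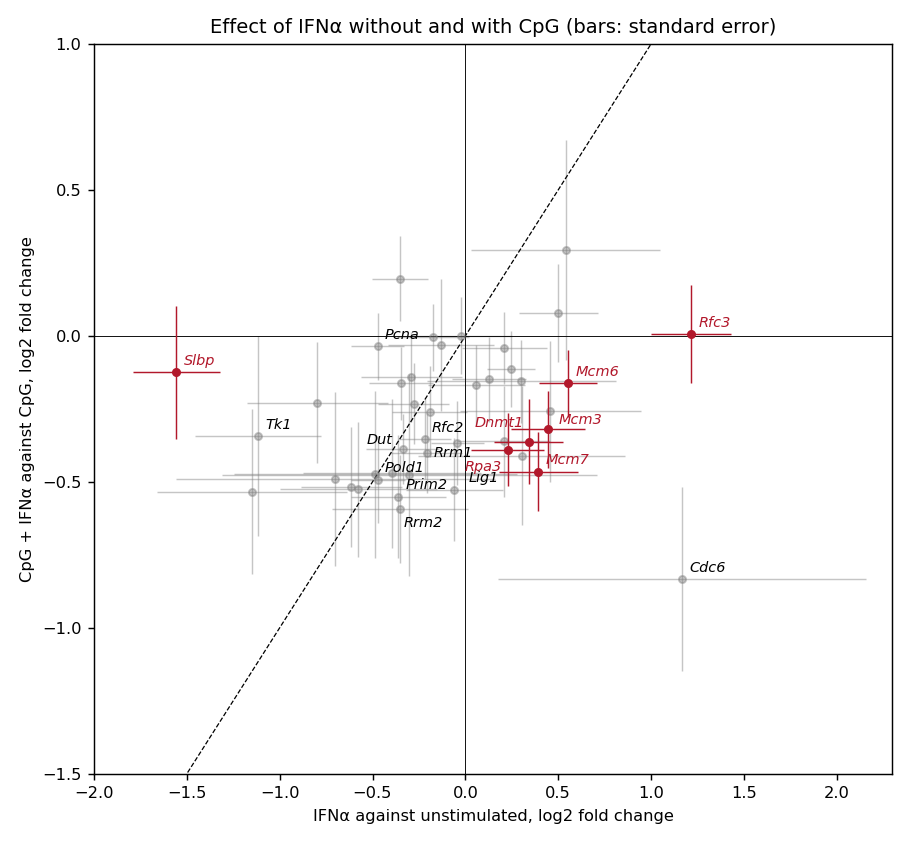
Effect of IFNα on the 44 tested DNA replication genes without CpG (horizontal) and with CpG (vertical), as log2 fold changes with standard errors. The comparisons share no library. The dashed line marks equal effects. Red genes passed the test of the difference, and Rfc3 and Slbp lie farthest from the line among them.

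Other genes of the same processes were measured for comparison, and their counts are to be read beside the 20.1% of all genes that CpG up-regulated, the 25.5% that it down-regulated and the median of -0.03. Of 30 tested replication genes outside the 45, CpG up-regulated 17 and down-regulated 1, with a median log2 fold change of 1.07. Tipin, a subunit of the fork protection complex, was up-regulated by 2.73 and Top1, a topoisomerase that relieves strain ahead of the fork, by 1.27. Pold4, the smallest subunit of polymerase δ, was down-regulated, from 249, 288 and 297 CPM to 66.3, 58.4 and 55.9 CPM (log2 fold change of -2.21, standard error 0.14, edgeR adjusted p = 1.82e-15). It was lower again with CpG + IFNα than with CpG, at 23.5, 28.3 and 27.8 CPM (log2 fold change of -1.17, edgeR adjusted p = 2.70e-06), as was Clspn, the checkpoint mediator claspin (log2 fold change of -1.23, edgeR adjusted p = 0.00768), which did not pass without CpG replicate 3 (-0.91, edgeR adjusted p = 0.16). Polymerase δ thus had Pold2 up-regulated, Pold1 lower and Pold4 down-regulated by CpG.

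Among 13 tested genes of nucleotide supply outside the 45, CpG up-regulated 9 and down-regulated 3 (all genes, 20.1% and 25.5%). Nme1, a nucleoside diphosphate kinase, and Ctps, the CTP synthase, were up-regulated by 2.50 and 3.03. Samhd1, which hydrolyses dNTPs and is known as an interferon-stimulated gene, had 503, 579.7 and 504 CPM in unstimulated cells and 45.4, 39.2 and 40.9 CPM with CpG (log2 fold change of -3.65, standard error 0.13, edgeR adjusted p = 1.84e-21). IFNα raised it both without CpG, to 1552, 1501 and 1594 CPM, and with CpG, to 122, 127 and 143 CPM. Dck, the deoxycytidine kinase of the salvage pathway, was likewise lower with CpG (-1.84) and higher with IFNα, by 1.07 without CpG and 1.88 with CpG. Without the limit on fold change, 2 of the 13 genes rose and 4 fell with IFNα alone (all genes, 12.4% and 11.9%). Between CpG + IFNα and CpG, 2 rose and 4 fell (all genes, 6.54% and 8.83%). Nme1 was among those that fell there (log2 fold change of -0.29, edgeR adjusted p = 0.0749). Tk1, the salvage kinase among the members, was lower with either stimulus.

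Of 22 tested regulators of the G1/S transition, CpG up-regulated 12 and down-regulated 4 (all genes, 20.1% and 25.5%). Cdk6 and Cdk4, the kinases of cyclin D, were up-regulated by 2.53 and 1.97, and Cdkn1b, the inhibitor p27, was down-regulated (-2.28). Between CpG + IFNα and CpG, 2 of the 22 were up-regulated and 1 down-regulated (all genes, 2.95% and 2.01%). Without the limit on fold change, 3 rose and 4 fell (all genes, 6.54% and 8.83%). IFNα with CpG raised Ccnd2, a D-type cyclin, from 575, 568 and 612 CPM to 1374, 1509 and 1249.9 CPM (log2 fold change of 1.24, standard error 0.12, edgeR adjusted p = 8.38e-10), and Cdkn1a, the inhibitor p21, from 75.5, 135 and 95.4 CPM to 205, 294 and 268 CPM (log2 fold change of 1.34, standard error 0.16, edgeR adjusted p = 6.34e-08). Cdk6 and Cdkn1b fell there (log2 fold changes of -0.41 and -0.48, edgeR adjusted p = 0.0112 and 0.0253), and Cdkn1b did not pass without CpG replicate 2 or 3. Of 25 mitosis genes 13 passed the filter, and CpG up-regulated 7 and down-regulated 1 of them (all genes, 20.1% and 25.5%). Top2a and Bub1b were up-regulated by 1.70 and 2.19, and Ndc80 was down-regulated (-1.81). Mki67, the proliferation marker Ki-67, had 6.75, 19.96 and 35.4 CPM with CpG and 5.45, 9.31 and 7.71 CPM with CpG + IFNα (log2 fold change of -1.46, standard error 0.37, edgeR adjusted p = 0.00595), and Top2a had 38.1, 71.3 and 109.8 CPM and 43.1, 57.6 and 33.4 CPM (log2 fold change of -0.70, standard error 0.23, edgeR adjusted p = 0.0419). Both genes overlapped between the groups, and CpG replicate 3 was the highest library in both. Without it, neither passed, with log2 fold changes of -0.76 for Mki67 and -0.24 for Top2a (edgeR adjusted p = 0.317 and 0.631). Top2a did not pass without CpG + IFNα replicate 1 or 3 either (edgeR adjusted p = 0.106 and 0.173).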

How the data were processed

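The authors prepared 3′ mRNA libraries (BRB-seq, oligo(dT) priming, UMIs of 10 bases) and deposited 1 table of raw UMI counts per gene. Per the submitters' processing notes, they used UMI-tools 1.1.2, Trim Galore 0.6.7, HISAT2 2.2.1 and featureCounts 2.0.1 with GRCm38, and per the methods the 3′ end of Tlr9 was extended. The annotation release and the strand setting of the counting are not given in the sources used here. Counts near the 3′ end do not grow with transcript length, and reads from overlapping genes may be assigned to either.

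Counts of 22561 genes in 12 libraries were analysed with edgeR 4.0.16 (R 4.3.3): genes were filtered by group (9431 kept), scaled by TMM and fitted in 1 quasi-likelihood model over the 4 groups with 8 residual degrees of freedom. The 6 contrasts were adjusted by Benjamini-Hochberg over all tested genes. DEGs passed both an adjusted p of 0.1 and a 2-fold change, and "rose" and "fell" use the adjusted p alone. Standard errors are the log2 fold change divided by the square root of F. Libraries of a group differed by more than sampling noise and were kept as 3 samples. The fit was tested on simulated data.

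Values in every sample are given for the members with the highest and lowest change with CpG in each role, for those with the smallest p in the other comparisons (6 for CpG + IFNα against CpG, 4 for IFNα and 4 for the interaction), and for a few further members chosen after their values were seen. From other lists, the genes with the smallest p were named. The members and lists were chosen with earlier results of these data known. Depth of 922450 to 2923865 counts per library limits genes with few counts, and intervals on counts cover counting error only. Alternatives were DESeq2 1.42.0 (test and size factors), library totals alone, no filter, only the groups compared, 2 other thresholds, a replicate block, and each library left out. Promoters were searched with Python 3.11.15.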

Additional observations from a re-analysis of the deposited data

Results flagged for a closer look

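The interaction test, which asks whether IFNα acted unequally in the presence and absence of CpG, called 7 of the 44 tested members (edgeR adjusted p under 0.1), 1 higher and 6 lower. Over all genes the same test called 5.84% higher and 7.58% lower. The list was not tested against other genes. The difference, the log2 effect with CpG minus that without it, was -0.77 for Mcm3, -0.72 for Mcm6, -0.86 for Mcm7, -1.21 for Rfc3, -0.62 for Rpa3, -0.70 for Dnmt1 and 1.43 for Slbp. The 3 helicase subunits, the clamp loader subunit, the RPA subunit and the methyltransferase had a lower effect of IFNα with CpG, and the histone mRNA binding protein a higher one. Over the 17 alternatives that kept the threshold, the highest adjusted p was 0.0246 for Rfc3, 0.0189 for Slbp, 0.0769 for Mcm6 and 0.0933 for Mcm7. It was 0.127 for Mcm3, 0.279 for Dnmt1 and 0.349 for Rpa3. None of the alternatives addressed the overlap of Mcm7 with Cops6 on the opposite strand. Groups of 3 libraries were not tested for single outlying samples.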

How the results depend on the processing

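Among the members named for the highest or lowest change or for the smallest p, none reversed its direction among called values. The other tested members were not checked for this. With the adjusted p alone as the limit, the counts of up- and down-regulated members became 2 and 4 for IFNα, and the down-regulated became 7 for CpG, 7 for CpG + IFNα against unstimulated, 10 for CpG + IFNα against CpG, 4 for CpG + IFNα against IFNα and 6 for the interaction. With a log2 fold change over 2, the up-regulated became 13 for CpG, 11 for CpG + IFNα against unstimulated and 11 against IFNα, all down-regulated counts in these 3 became 0, and IFNα and the interaction had 0 and 0. CpG + IFNα against IFNα had 0 down-regulated members with library totals alone and 0 without the filter. Leaving out 1 library gave 1 to 3 down-regulated members for IFNα, 1 to 3 for CpG, 0 to 1 for CpG + IFNα against CpG, 0 to 1 against IFNα, and 1 to 2 up-regulated and 1 to 2 down-regulated for the interaction. Same-numbered libraries of different groups had deviations that correlated over 0.1 in 5 of 18 pairs (median r of 0.04, highest 0.20). Of pairs with different numbers, 0 of 36 did. All 5 pairs were between stimulated groups. Between CpG and CpG + IFNα, r was 0.154, 0.147 and 0.056 for replicates 1, 2 and 3, and at most 0.023 for unlike numbers. The highest correlation was with the own number in 19 of 36 cases. As not every same-numbered pair passed 0.1, the numbers were not taken to pair the samples. Whether same-numbered samples share a source is not given, so the unpaired tests between stimulated groups may ignore a pairing. With the replicate block, IFNα had 3 down-regulated members, and 14 in place of 10 fell in CpG + IFNα against CpG. Counts were lowest, beside Fen1, for the 9 tested members with at most 9 counts in each unstimulated library, which were Orc1, Cdc6, Mcm10, Cdc45, Gins1, Gins2, Gins3, Rfc4 and Tyms.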
